A study of Mus musculus with 4 samples.

Results

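The miR-290-295 cluster of the mouse gives rise to 7 hairpins, and the 7 miRNAs described here are the 5p arms of those hairpins, the strands cut from the 5′ side of each stem. They were taken by name from an Agilent mouse miRNA array, as 7 of the 577 names it holds, and the array calls them mmu-miR-290-5p, mmu-miR-291a-5p, mmu-miR-291b-5p, mmu-miR-292-5p, mmu-miR-293*, mmu-miR-294* and mmu-miR-295*. The prefix, which stands for mouse, is left out below. RNA came from A3-1 cells, a mouse embryonic stem cell line, cultured in medium that held fetal bovine serum and the self-renewal cytokine LIF. One group received an siRNA against Lin28a and the control group an siRNA against GFP, and total RNA was taken 48 h later from 2 replicates of each. Every replicate was labelled with Cy3 from 100 ng of RNA and hybridised to 1 array, so 2 siLin28a and 2 siGFP arrays carry the comparison. Whether the replicates were separate cultures is not stated in the labels. The p-values therefore cover the spread among the 4 arrays and no more, and that spread may be technical. The array holds no probe for Lin28a mRNA, and the extent of the knockdown is not measured here.

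A miRNA hairpin yields an RNA duplex, and usually one strand is loaded into an Argonaute protein while the other, the star strand, is degraded. Bases 2 to 8 of the loaded strand, the seed, select its targets. The miR-290-295 cluster is the main miRNA cluster of mouse embryonic stem cells and is switched off as they differentiate. Most of its 3p arms share an AAGUGC seed known for promoting the cell cycle, whereas the 5p arms carry other seeds and are less studied. LIN28A is an RNA-binding protein that blocks the maturation of let-7 precursors, and the comparison asks which mature miRNAs depend on it.

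The 5p sequences are shown because their seeds divide the arms into groups. They are the mature sequences of RefSeq on build GRCm38.p6, 5′ to 3′, with the seed in capitals.
miR-290-5p: aCUCAAACuaugggggcacuuu
miR-292-5p: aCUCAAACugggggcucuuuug
miR-293*: aCUCAAACugugugacauuuug
miR-294*: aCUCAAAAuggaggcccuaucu
miR-295*: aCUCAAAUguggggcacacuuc
miR-291a-5p: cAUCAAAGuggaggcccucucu
miR-291b-5p: gAUCAAAGuggaggcccucucc

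All 7 names matched a RefSeq entry, and each sequence has 22 bases. 3 arms share the seed CUCAAAC, 1 has CUCAAAA, 1 has CUCAAAU and 2 share AUCAAAG. The first 5 therefore have bases 2 to 7 in common. RefSeq entries were found for 469 of the 567 mouse names on the array. Among 562 sequences of these names, which include both arms where the array name does not give the arm, 0 outside the cluster shared bases 2 to 7 with a 5p arm. miR-291a-5p and miR-291b-5p are identical at 20 of 22 bases, and going from miR-291a-5p to miR-291b-5p the changes are C1G and U22C, counted from the 5′ end. The remaining 20 pairs of arms match at 11 to 18 of 22 bases without gaps.

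On build GRCm38.p6 the arms lie on the plus strand of chromosome 7, from miR-290-5p at chr7:3218639-3218660 through miR-291a-5p at chr7:3218932-3218953, miR-292-5p at chr7:3219200-3219221, miR-291b-5p at chr7:3219494-3219515, miR-293* at chr7:3220356-3220377 and miR-294* at chr7:3220655-3220676 to miR-295* at chr7:3220779-3220800. The 7 hairpins span 2216 bases. In the RefSeq annotation 6 of them lie within the long non-coding RNA gene D7Ertd143e and 6 within the limits of the protein-coding gene Nlrp12. Whether they are exonic was not looked up. The array files give the targets of the 5p probes on chromosome 7 of build mm9, between 3218647 and 3220801.

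2 hairpins are shown to place the arm in its stem, with the 5p arm in capitals. They are those of miR-292-5p, which differed most between the groups in the upward direction, and of miR-293*, which varied most between replicates.
miR-292 hairpin: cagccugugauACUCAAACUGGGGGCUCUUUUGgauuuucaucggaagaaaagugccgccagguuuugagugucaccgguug
miR-293 hairpin: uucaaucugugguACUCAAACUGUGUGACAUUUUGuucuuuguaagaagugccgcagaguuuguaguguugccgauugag
RefSeq places the hairpin of miR-292 at chr7:3219189-3219270 and that of miR-293 at chr7:3220343-3220422 on the plus strand of build GRCm38.p6.

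Each 5p arm has 4 probes of 5 spots each, which end at the same base and lengthen by 1 base at a time. The probes of an arm are therefore overlapping readings of 1 RNA and not replicates. Spot signals were averaged per probe and divided by the array's 75th percentile, taken over the 425 probes that passed the background flag on every array. That percentile was 248 and 265 on the siLin28a arrays, against 226 and 220 on the siGFP arrays. A probe was used when it was well above background, by the scanner software's flag, on both arrays of at least 1 group. Of the 28 probes of the 5p arms 18 were used, with a median coefficient of variation among spots of 5.47% (range 0.847% to 22.8% over probes and arrays). The level of an arm is the mean over its used probes of the log2 scaled signal, and the values given below as scaled signal are that mean turned back to a linear scale. Levels of different arms are not comparable, because each probe binds with its own strength.

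The identity of the cells was read from the 3p arms of the cluster, 7 of 7 of which were detected on all 4 arrays. Their summed total signal, which is not scaled between arrays, was 64186 and 66630 on the siLin28a arrays and 58116 and 57773 on the siGFP arrays. Of 5 markers of primed pluripotent cells, miR-302a to miR-302d and miR-367, 4 were detected on no array, miR-367 on siLin28a replicate 1 alone, and their sum was 42.9 and 20.0 with siLin28a against 27.6 and 12.3 with siGFP. Fibroblast markers were detected on all arrays for 4 of 7 names, miR-21, miR-29a, miR-31 and miR-143. Their sums over the 7 names were 488 and 459 with siLin28a and 430 and 363 with siGFP. Of these, miR-21 alone gave 355 and 304 with siLin28a and 321 and 250 with siGFP. miR-145 and miR-199a-5p were detected on no array, and miR-214 only on replicate 2 of each group. Neural markers were detected on all arrays for 3 of 4, miR-124, miR-128 and miR-219, and miR-9 on no array. The neural sums were 244 and 330 with siLin28a and 209 and 255 with siGFP. Of these, miR-124 alone gave 146 and 214 with siLin28a and 136 and 163 with siGFP. The part of such cells in the 5p values was not tested. In a bulk sample fewer cells of a type and less RNA per cell cannot be told apart.

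No 5p arm was called changed when Lin28a was targeted. Of 7 arms, 6 could be tested, and 0 of them passed limma's test after adjustment (threshold 0.05), in a fit where 0.866% of the 231 tested miRNAs were called higher and 0% lower. Before adjustment 0 of the 6 were below 0.05, beside 24.7% of all tested miRNAs (57 of 231). In 17 alternative settings the lowest limma adjusted p of a 5p arm was 0.111. Their log2 differences, siLin28a minus siGFP, ran from -0.14 to 0.21 with a median of -0.077, and the median over all 231 miRNAs was 0. The median size of the difference, regardless of sign, was 0.12 for the 6 arms and 0.23 for all tested miRNAs. For scale, the let-7 guide strands let-7a and let-7f, known LIN28A targets, differed by 1.12 and 1.17 on the log2 scale in the same fit (limma adjusted p = 0.021 for each), and they are the 2 called. The siGFP values of both lay at the floor, the lowest signal that counts as well above background, so those 2 differences are understated. The floor also makes the siGFP replicates of both equal, which hides their spread. The 2 p-values may therefore be too small. The let-7 guide strands let-7g, let-7e and let-7d, at the floor on both siGFP arrays too, differed by 1.01, 0.35 and 0.016. None of these was called.

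**Figure D1:**
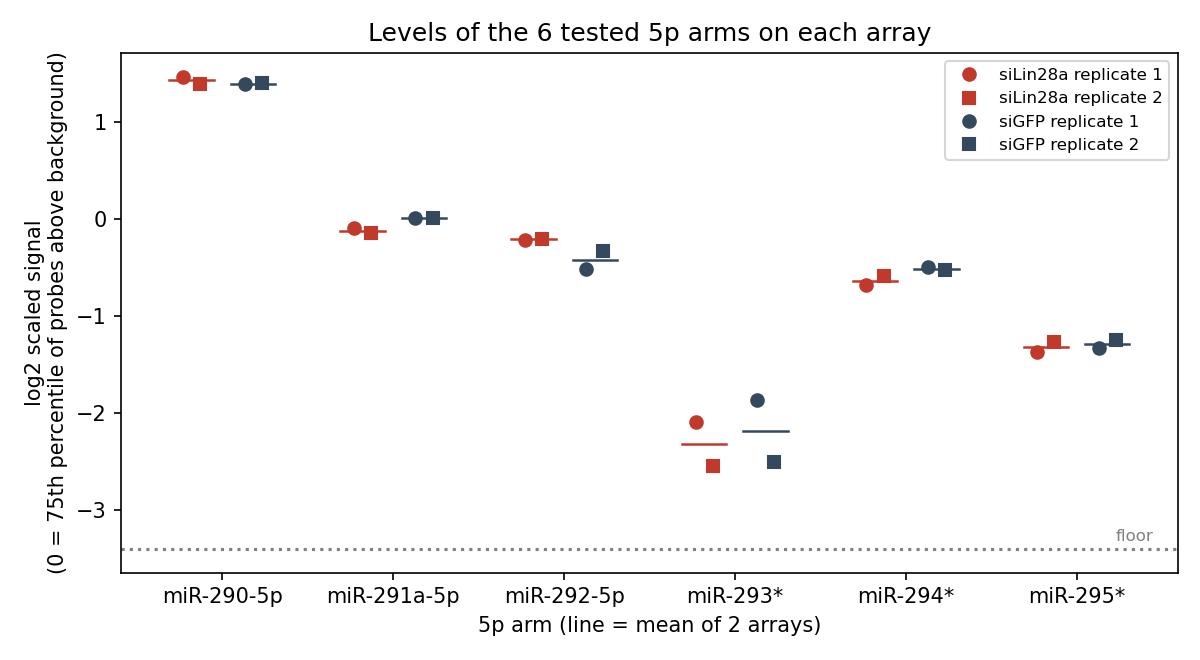
Level of the 6 tested 5p arms on each array, as log2 scaled signal, with siLin28a in red to the left and siGFP in dark blue to the right. Circles are replicate 1, squares replicate 2 and lines the mean of 2 arrays. The groups sit within 0.21 of each other for every arm, and miR-293* has its replicate 1 arrays above its replicate 2 arrays in both groups. Heights of different arms cannot be compared.

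Among the arms with the seed CUCAAAC, miR-290-5p had a scaled signal of 2.77 and 2.63 on the siLin28a arrays and 2.62 and 2.64 on the siGFP arrays. siLin28a replicate 1 was the highest array and siGFP replicate 1 the lowest, and the groups overlapped. The log2 difference was 0.037 (SE 0.057; adjusted p = 0.688 in limma with n = 2 per group). Its 95% interval of -0.13 to 0.20 allows a change between 0.916-fold and 1.15-fold. With the 75th percentile taken over all probes the difference was -0.14, and with the brightest probe alone it was -0.13, so its direction depends on the scaling and on the probe.

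miR-292-5p had a scaled signal of 0.862 and 0.870 on the siLin28a arrays, against 0.701 and 0.799 on the siGFP arrays. Both siLin28a arrays lay above both siGFP arrays, as they did for 30.7% of all tested miRNAs, and it was the 1 arm of the 6 for which they did. The log2 difference was 0.21 (SE 0.098, limma adjusted p = 0.266, n = 2 per group), which is a fold of 1.16 with an interval of 0.951 to 1.41. It stayed above 0 in all 17 alternatives, from 0.036 with scaling over all probes to 0.41 with no scaling between arrays. Between arrays of the same replicate number it was 0.30 for replicate 1 and 0.12 for replicate 2.

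miR-293* had a scaled signal of 0.234 and 0.171 on the siLin28a arrays and 0.274 and 0.177 on the siGFP arrays. Replicate 1 was high and replicate 2 low in each group, and the groups overlapped. The log2 difference was -0.14 (SE 0.31, limma adjusted p = 0.781, n = 2 per group), with an interval of 0.494-fold to 1.68-fold, the widest of the 6 arms. It was 0.23 without siGFP replicate 1, 0.088 without siLin28a replicate 2, -0.36 without siLin28a replicate 1 and -0.44 without siGFP replicate 2. Leaving out 1 array unbalances the replicate numbers, so the gap between replicates enters these 4 values. Between same-numbered arrays the difference was below 0 in each case, at -0.23 for replicate 1 and -0.043 for replicate 2. It was above 0, at 0.0070, with no scaling between arrays and, at 0.096, in the authors' deposited table. In the alternative that grouped arrays by replicate number, the SE of miR-293* was 0.096 (limma adjusted p = 0.339, n = 2 per group). 1 of its 2 used probes was at the floor on replicate 2 of each group.

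Of the other arms that share CUCAAA at bases 2 to 7, miR-294* had a scaled signal of 0.625 and 0.665 on the siLin28a arrays, against 0.710 and 0.695 on the siGFP arrays. Both siLin28a arrays were below both siGFP arrays, as for 30.7% of all tested miRNAs. The log2 difference was -0.12 (SE 0.082, limma adjusted p = 0.370, n = 2 per group), with an interval of 0.779-fold to 1.08-fold. Without scaling between arrays it was 0.080, where the median of all miRNAs was 0.19. miR-295* had 0.387 and 0.416 with siLin28a and 0.398 and 0.422 with siGFP, and its groups overlapped. Its log2 difference was -0.031 (SE 0.11, limma adjusted p = 0.869, n = 2 per group), with an interval of 0.784-fold to 1.22-fold. Here too the difference was above 0, at 0.17, without scaling.

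Of the pair with the seed AUCAAAG, miR-291a-5p had a scaled signal of 0.937 and 0.907 on the siLin28a arrays, against 1.01 and 1.01 on the siGFP arrays. The groups did not overlap, with siLin28a lower, and the siGFP arrays were 0.00077 apart on the log2 scale. The log2 difference was -0.13 (SE 0.066, limma adjusted p = 0.294, n = 2 per group), with an interval of 0.803-fold to 1.05-fold, and it was 0.077 without scaling between arrays. Of the 6 tested arms, 2 were thus lower without overlap, 1 higher and 3 overlapping, so the groups were apart for 3 of 6 arms, beside 61.5% of all tested miRNAs. The difference was below 0 for 4 of the 6 arms, beside 49.4% of all tested miRNAs.

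miR-291b-5p, which differs from miR-291a-5p at the 2 end bases, could not be tested. None of its 4 probes was well above background on any array, and the probe with the longest target gave mean spot signals of 7.0 and 12.0 with siLin28a and 8.11 and 6.15 with siGFP. The total gene signal that the scanner software gives for this arm was 1.45 and 5.78 on the siLin28a arrays and 2.62 and 2.35 on the siGFP arrays. The software called it detected on siLin28a replicate 2 alone. For comparison of detection only, 3 of the 4 probes of miR-291a-5p were well above background on all 4 arrays. The listed targets differ in length, from 10 to 13 bases for miR-291b-5p and from 12 to 15 for miR-291a-5p. The 12-base probe of miR-291a-5p had 0 of 5 spots above background on each array. Its 13-base probe gave mean spot signals of 65.1 and 65.9 with siLin28a and 63.0 and 58.8 with siGFP. Its targets of 14 and 15 bases have no counterpart for miR-291b-5p. The part of probe length in the difference between these arms was not tested.

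**Figure D2:**
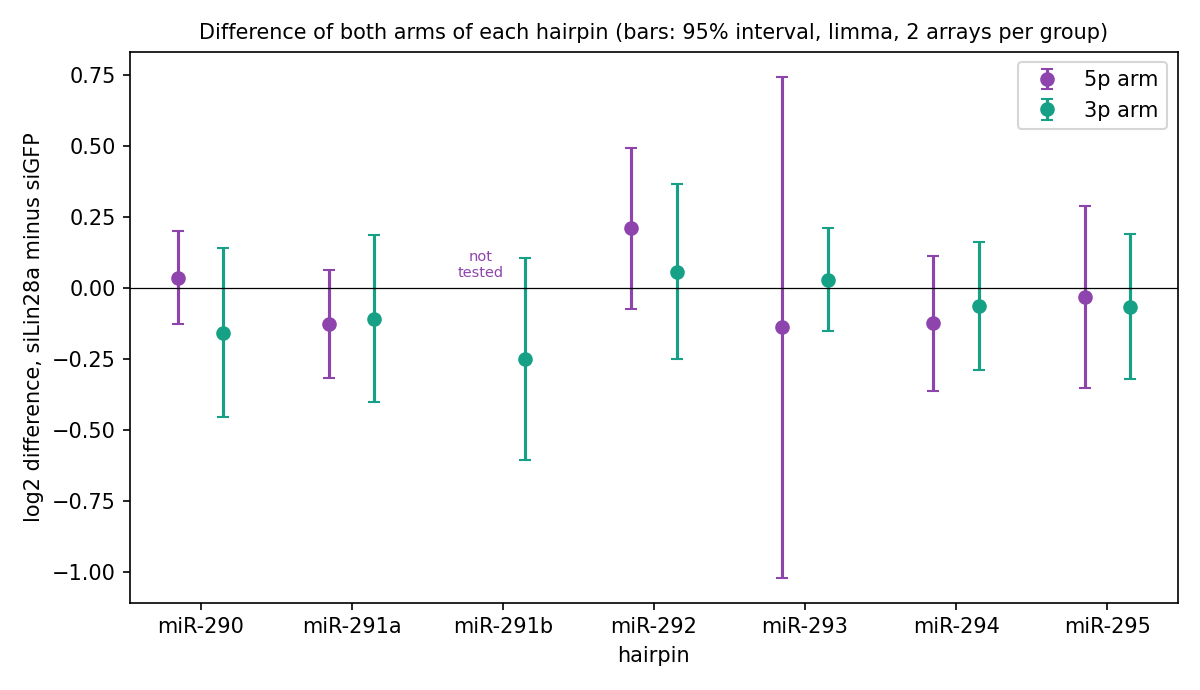
Log2 difference, siLin28a minus siGFP, of the 5p arm (purple) and the 3p arm (green) of each hairpin, with 95% intervals from limma over 2 arrays per group. All 13 intervals include 0, the widest is that of miR-293*, from -1.02 to 0.75, and miR-291b-5p was not tested.

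Set against all miRNAs, the scaling moves the 5p arms together with the rest. The median difference of the arms was -0.23 with scaling over all probes and 0.13 without scaling, where the median over all miRNAs was -0.16 and 0.19. Relative to the median of all tested miRNAs, that of the arms lay between -0.13 and -0.0011 in the main setting and the 17 alternatives. With the authors' deposited table and with no filter on dim probes, the arms include miR-291b-5p.

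Probe by probe, the differences within an arm were not always alike. For miR-290-5p the 4 probes, from the shortest listed target of 12 bases to the longest of 15, gave log2 differences of 0.25, 0.046, -0.024 and -0.13. The mean signals of the shortest probe were 166 and 189 with siLin28a and 129 and 129 with siGFP. Those of the longest were 3619 and 3467 with siLin28a and 3459 and 3276 with siGFP. The shortest probe thus was higher on both siLin28a arrays after scaling, while the longest was lower on both. For miR-292-5p the 3 used probes, with targets of 13, 14 and 15 bases, gave 0.28, 0.24 and 0.11. The order ran the same way, with the smallest difference at the longest probe.

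miR-291a-5p gave -0.097, -0.16 and -0.12 on its 3 used probes and miR-294* gave -0.13, -0.11 and -0.13, with no such order. miR-295* gave -0.071, 0.0076 and -0.029. The targets listed for miR-293* were longer, from 19 to 22 bases, and its 2 used probes gave -0.097 and -0.18. Of the 18 used probes 12 had a difference below 0 and 6 above it.

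1 spot weighs on miR-290-5p. On siLin28a replicate 2 a spot of its shortest probe read 1167, against a mean of 189 over the other spots, and was marked by the scanner software as an outlier. It was left out here with the other marked spots, 10 of the 560 spots of the 5p arms over the 4 arrays. With marked spots kept, an alternative added after the data were seen, the difference of miR-290-5p was 0.14 (SE 0.070, limma adjusted p = 0.293, n = 2 per group), in place of 0.037.

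**Figure D3:**
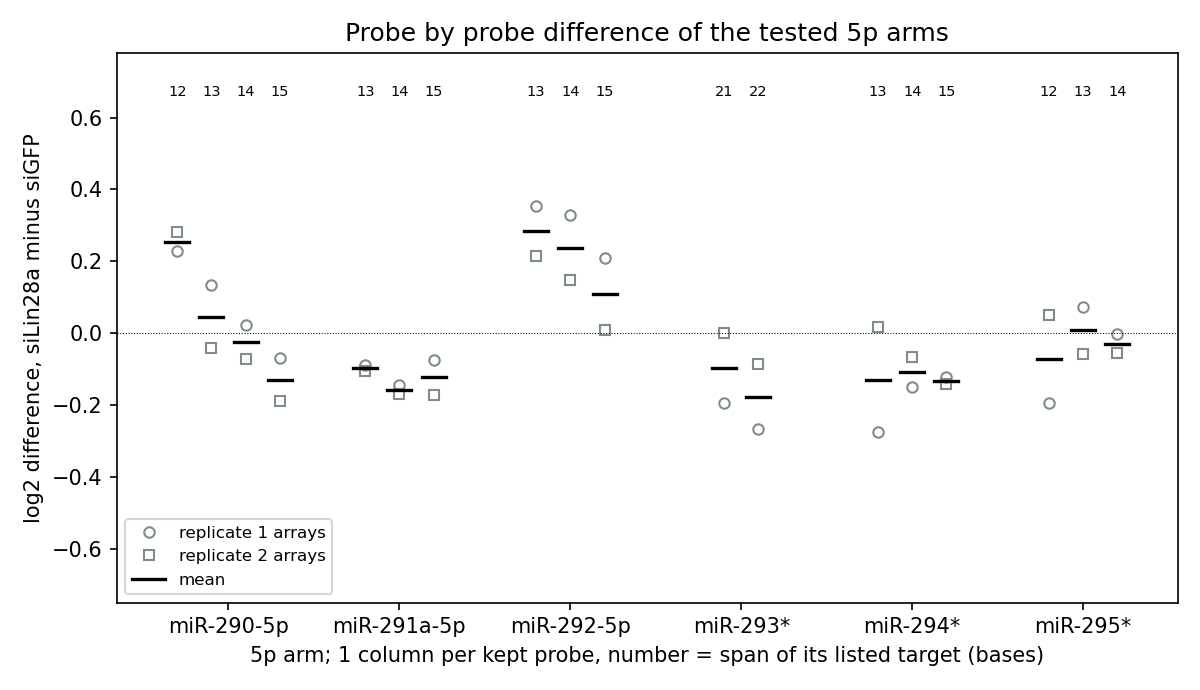
Log2 difference, siLin28a minus siGFP, of each used probe of the 6 tested 5p arms, ordered within an arm from the shortest to the longest listed target (number of bases at the top). Black lines are means, circles the difference between the replicate 1 arrays and squares that between the replicate 2 arrays. The means of miR-290-5p run from 0.25 at the shortest probe to -0.13 at the longest, and those of miR-291a-5p stay between -0.16 and -0.097.

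The 3p arms, the partner strands of the same hairpins, were not called either. All 7 were tested and 0 passed limma's test, with 0 below an unadjusted p of 0.05. Their log2 differences ran from -0.25 to 0.058 with a median of -0.065. To ask whether the arms of a hairpin changed unequally, the 5p level minus the 3p level was taken on each array and compared between the groups, for the 6 hairpins of the cluster and 21 others with both arms tested. In that limma fit 0% of 27 hairpins passed after adjustment. Before adjustment 3.7% were below 0.05, which was 1 hairpin, outside the cluster.

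Within the cluster the change of the contrast was largest in size for miR-290, whose contrast was 2.13 and 2.24 on the log2 scale with siLin28a and 1.97 and 2.02 with siGFP. Both siLin28a arrays lay above both siGFP arrays. The change was 0.19 (SE 0.14, limma adjusted p = 0.448, n = 2 per group), with an interval of -0.12 to 0.51. Over the alternatives it ran from 0.053 with the brightest probe of each arm to 0.33 with marked spots kept, so its size depends on the processing. For the other 5 hairpins the groups overlapped, and the change was 0.15 for miR-292, 0.034 for miR-295, -0.018 for miR-291a, -0.061 for miR-294 and -0.17 for miR-293. Groups were apart for 1 of 6 hairpins of the cluster, beside 44.4% of all 27. The two-sided exact permutation test over arrays gave p = 0.333 for miR-290, the smallest that 2 arrays against 2 can give.

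miR-293* was the arm with the largest gap between replicates. Replicate 1 exceeded replicate 2 by 0.45 on the log2 scale with siLin28a and by 0.64 with siGFP, whereas the other 5 tested arms had gaps from -0.10 to 0.075 with siLin28a and from -0.19 to 0.031 with siGFP. Its 3p partner miR-293 had gaps of 0.062 and 0.011. Replicate 1 was above replicate 2 in both groups for 21.6% of all tested miRNAs, and by at least 0.45 in both for 6.49% (15 of 231), of which 12 have names of the miR-466, miR-467, miR-669 or miR-297 families. That cut is the smaller gap of miR-293* itself, which is among the 15. The arrays lie on 1 slide scanned once, with siLin28a at positions 2 and 4 and siGFP at positions 1 and 3 for replicates 1 and 2, so replicate number and slide position cannot be told apart. Between arrays of the same number, siLin28a minus siGFP was -0.23 for replicate 1 and -0.043 for replicate 2.

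**Figure D4:**
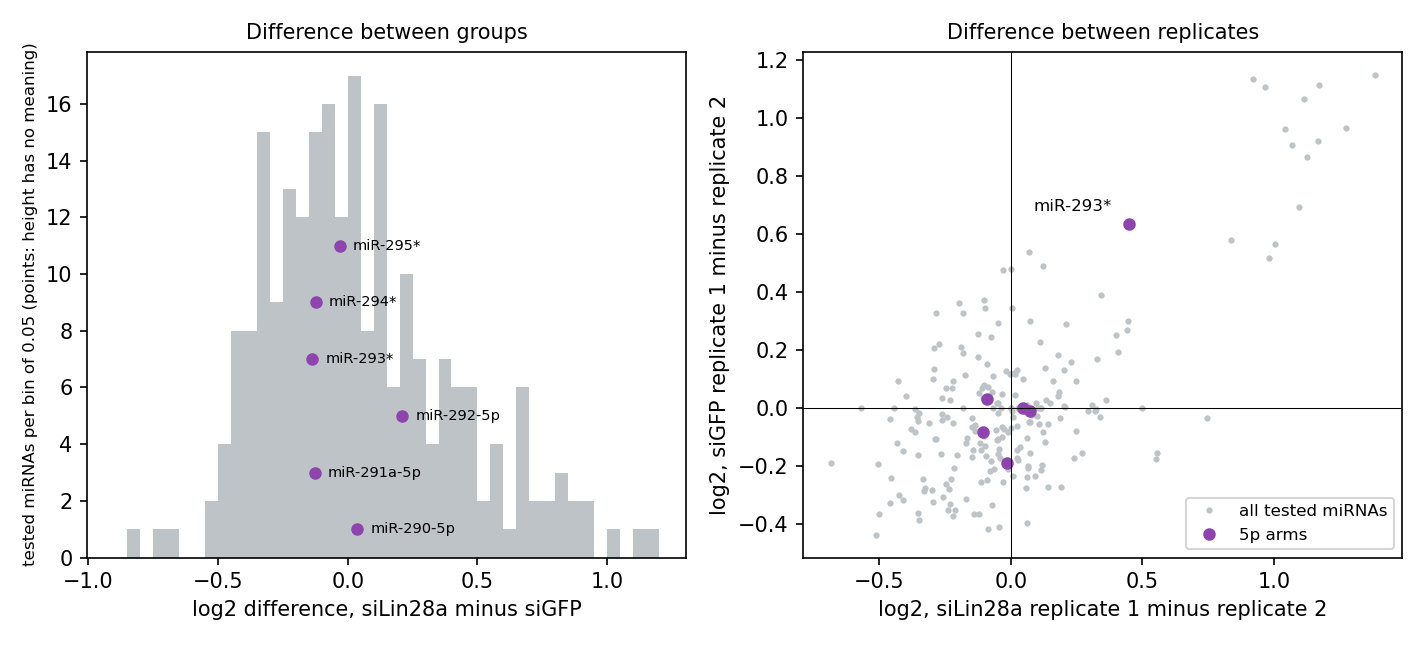
Left, histogram of the log2 difference, siLin28a minus siGFP, over 231 tested miRNAs in bins of 0.05, with the 6 tested 5p arms as purple points whose height has no meaning. Right, replicate 1 minus replicate 2 on the log2 scale with siLin28a (x axis) and with siGFP (y axis) for every tested miRNA, in grey, and the 5p arms, in purple. The arms lie between -0.14 and 0.21 on the left, and miR-293*, at 0.45 and 0.64, stands apart from the other 5 arms on the right.

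The sequence GGAG, the motif by which LIN28 proteins bind the loop of let-7 precursors, was looked for in the printed strand of the mature 5p arms, a search chosen after the values were seen. 3 of 7 arms hold it, miR-291a-5p, miR-291b-5p and miR-294*, each from base 10. It occurs in 12.6% of the 753 mature mouse sequences of 22 bases in the RefSeq table. The 2 tested arms with these letters had differences of -0.13 and -0.12, and the 4 without them -0.14, -0.031, 0.037 and 0.21. These 2 arms, miR-291a-5p and miR-294*, match at 18 of 22 bases, and whether their probes tell them apart was not tested. A match of letters in the mature strand is a description and not a binding site, and no test was made.

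The 5 tested miRNAs outside the cluster with the pattern over the 4 arrays nearest to the mean of the 6 arms were miR-342-3p, let-7d, the viral name mghv-miR-M1-2, miR-433* and miR-466f-5p, by root mean square distance between log2 levels centred on each miRNA's mean. The distance was 0.028 for miR-342-3p and 0.033 to 0.034 for the others, and the median over all 218 outside the cluster was 0.18. mghv-miR-M1-2, miR-433* and miR-466f-5p were at the floor on all 4 arrays and let-7d on 3, so those 3 are flat by construction.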

How the data were processed

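The deposited scanner files hold spot intensity values from Agilent Feature Extraction, version 9.5.3.1 per the submitters' processing notes. The file headers give 9.5.1.1 as the grid version. Per the file headers, each value is the spot's mean minus a spatial background surface, with no scaling between arrays. The authors' deposited table holds the software's total intensity per miRNA, rounded, with values at or below 0 set to 0. Spots marked as outliers were left out, probes were scaled to the 75th percentile as described above, raised to a floor of 0.0948 where lower (each array's dimmest probe that passed the background flag was found, and the highest of these 4 values used), then turned into log2. This left 477 probes of 231 miRNAs. The comparison used limma (version 3.58.1, R 4.3.3; two-sided, lmFit and trended eBayes). P-values were adjusted by Benjamini-Hochberg across the 231 miRNAs, and 0.05 was the threshold. Degrees of freedom of this fit were 2 residual and 1.64 prior, and the script was tested on simulated data. The 5p minus 3p contrasts were fitted separately, with their own prior degrees of freedom, and their p-values were adjusted across the 27 hairpins. The number of arrays limits the precision. All 7 5p arms, all 7 3p arms, sharers of a 5p seed and the 5 nearest patterns were named by rule. The let-7 guide strands were named for scale. The members and lists were chosen with earlier results of these data known. Cluster names were matched to RefSeq through gene synonyms. Alternatives changed the scaling, background, filter, floor, probe summary, variance model, replicate block and arrays used.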

Additional observations from a re-analysis of the deposited data

How the results depend on the processing

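In 17 alternatives to the reported setting, no 5p arm and no arm contrast passed the adjusted threshold (lowest limma adjusted p = 0.111). Over all miRNAs, the 2 called higher and 0 called lower became 0 higher with the 75th percentile over all probes or with probes above background on all arrays only, 11 higher and 3 lower with normexp, 8 higher with the total gene signal or with the smallest positive signal as floor, 6 higher with the authors' deposited table, 40 higher and 8 lower with no filter on dim probes, and 0 to 13 higher with 1 array left out (13 without siLin28a replicate 1, 7 without siLin28a replicate 2, 0 without either siGFP array). The median difference of the tested 5p arms was -0.23 with scaling over all probes, 0.13 with no scaling and 0.13 with the authors' deposited table, -0.12 with quantile normalization, -0.063 with normexp, -0.16 with the total gene signal, -0.023 with no filter, -0.13 with the brightest probe, and -0.040 (without siGFP replicate 2) to -0.0043 (without siLin28a replicate 2) with 1 array left out. The medians with the authors' deposited table and with no filter cover 7 arms, as miR-291b-5p enters there, at 0.26 and 0. With no filter all 577 names were tested, and the prior degrees of freedom were infinite. The 40 and 8 calls of that setting therefore rest on the variance of the trend and not on each miRNA's own spread. The difference of miR-290-5p turned to -0.14 with scaling over all probes, -0.14 with the total gene signal and -0.13 with the brightest probe. With no scaling and with the authors' deposited table, those of miR-291a-5p were 0.077 and 0.089, of miR-293* 0.0070 and 0.096, of miR-294* 0.080 and 0.091, and of miR-295* 0.17 and 0.19. The contrast of miR-295 was -0.079 with quantile normalization and -0.025 with normexp, and that of miR-291a was 0.0085 with normexp and 0.014 with no filter. With 1 array left out, where the lone array is assumed to vary like the other group, the range was -0.44 to 0.23 for miR-293*, -0.083 to 0.028 for miR-295*, and -0.096 to 0.060, -0.48 to 0.19 and -0.084 to 0.15 for the contrasts of miR-291a, miR-293 and miR-295. The cause of these changes was not tested. With the replicate number as a replicate block the differences were the same and the limma adjusted p was 0.229 for miR-292-5p and 0.164 for the contrast of miR-290, the lowest. Same-numbered arrays deviated together over miRNAs (correlation 0.71), but the labels do not tie the numbers to a batch. Signals close to background limit miR-291b-5p and miR-293*. Where 1 group alone lies at the floor, as for let-7a and let-7f with siGFP, the difference is understated. For miR-293* the difference was -0.14 with the reported floor and -0.13 with the smallest positive signal as floor.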
